A study of Mus musculus with 148 samples.

Results

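Transcripts of 5 genes of the lung parenchyma were followed through a single-cell atlas of immune cells from mouse lungs and breast tumors. The genes were Sftpc, Sftpa1, Sftpb, Scgb1a1 and Inmt, which were 5 of the 52634 genes in the plate count tables. They were chosen by name as products of epithelial and stromal cells, with earlier results of these data known, including a comparison of photoactivated with non-photoactivated T cells of mice 6 and 7 in which Sftpc and Inmt were counted. Values of that comparison are therefore given as a description, without a test.

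Sftpc, Sftpa1 and Sftpb encode surfactant proteins, which alveolar type 2 cells make and secrete to keep the air spaces from collapsing. Scgb1a1 encodes the secretoglobin of airway club cells. Inmt encodes indolethylamine N-methyltransferase, an enzyme that is abundant in fibroblasts of the alveolar wall. Immune cells are not known as producers of these transcripts, whereas macrophages of the alveoli take up and break down surfactant.

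In the GRCm38 annotation (mm10, GENCODE vM21) Sftpc lay at chr14:70520949-70524081 on the minus strand and Sftpa1 at chr14:41131782-41136452 on the plus strand. Sftpb lay at chr6:72304610-72314371 on the plus strand, and Inmt at chr6:55170626-55175043 on the minus strand. Scgb1a1 lay at chr19:9083636-9087958 on the minus strand. Counts were of UMIs from reads in exons of these genes. The paper assigned reads with the UCSC genome browser as reference, so the coordinates above only locate the genes.

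The cells came from 27 female C57/b6 PA-GFP mice, whose cells fluoresce green after a light pulse to a chosen tissue region. Mice with tumors had received EO771-tdTomato breast cancer cells in the mammary gland at 8 weeks of age, and except in Pre-MET mice the tumor was resected 3 weeks later. Tissues were healthy control lungs, Pre-MET lungs of mice that still bore the primary tumor, lungs of relapse-free mice without detected metastases, and primary tumors. From mice with metastases came tissue sections with a lesion (MET section), distal normal lung, and photoactivated cells of the lesion's core and invasive margin. Single cells were sorted into plates of 384 wells, with dead cells and doublets gated out. The CD45 gate took CD31-negative CD45-positive cells, whereas the GFP gate took CD31-negative GFP-positive cells and did not require CD45, except that the core plates of mouse 17 were also gated on CD45. Relapse-free mice 6 and 7 gave GFP-positive plates as well as GFP-negative CD45-positive plates. Of the latter, 4 plates of mouse 7 (1076 of the 1448 immune wells) were labelled as not photoactivated and were in sequencing batch SB96, whereas the GFP-positive plates of mouse 7 were in SB99. The photoactivated cells of these 2 mice carried no specific niche in their labels, and the margin of mouse 17 was labelled as photoactivated outside the metastasis.

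The 148 plates held 56832 wells, of which 23425 carried 1 of 27 immune labels of the authors' annotation. The annotation covers wells with at least 500 UMIs, where a UMI (unique molecular identifier) marks 1 captured transcript. In each plate 4 wells were left without a cell, which gave 592 empty wells. For comparisons between mice, immune wells were summed per mouse and group into 67 sums of 55 to 1228 wells and 48306 to 2730606 UMIs. Levels below are counts per 1000000 UMIs (CPM) of such a sum or of the wells named.

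All 5 transcripts were rare in immune wells. Sftpc was counted 717 times in 315 of the 23425 wells (1.34%), and 208 of those wells held a single UMI. Inmt was counted 916 times in 572 wells (2.44%), 419 of them with a single UMI. Sftpa1 gave 141 UMIs in 87 wells, Scgb1a1 223 UMIs in 90 wells, and Sftpb 24 UMIs in 21 wells. The largest count in a single immune well was 72 for Sftpc, 27 for Inmt, 21 for Sftpa1, 15 for Scgb1a1 and 2 for Sftpb.

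The group in which immune wells most often held Sftpc or Inmt was the GFP-positive gate of relapse-free lungs. There 14.8% of 804 immune wells had a Sftpc UMI (Wilson 95% interval 12.5 to 17.4%) and 11.7% had an Inmt UMI (9.65 to 14.1%). In mice 6 and 7 the shares were 5.63% and 19.8% for Sftpc and 7.04% and 14.2% for Inmt. In the GFP-negative CD45-positive wells of the same 2 mice, 1 of 1448 wells had Sftpc (0.0691%, 0.0122 to 0.390%) and 2 had Inmt (0.138%). Intervals of this kind cover counting error alone, and wells of a plate are not independent samples. After every well was thinned to 500 UMIs the shares in the GFP-positive wells were 8.27% for Sftpc and 6.29% for Inmt, and in the GFP-negative wells 0.0145% and 0.0951%. Depth therefore moved the shares, while their order was the same.

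The invasive margin had the next highest pooled shares. Sftpc was found in 2.79% of 1863 margin wells (2.13 to 3.64%) and Inmt in 6.07% (5.07 to 7.24%). Mouse 17 gave 108 of its 113 wells with Inmt, and without that mouse, a choice made after seeing the data, the margin was at 0.494% of 1012 wells for Inmt and 2.57% for Sftpc. Distal normal lung without mouse 17 was at 0.745% of 3222 wells for Inmt and 0.590% for Sftpc, so the interval of the margin lay above that of distal normal lung for Sftpc and overlapped it for Inmt. The MET core without mouse 17 was at 0.312% for Sftpc and 0.234% for Inmt. In the MET core the shares were 0.766% and 3.00% of 3395 wells, in MET sections 0.499% and 0.599% of 4010 wells, and in distal normal lung 1.06% and 2.42% of 3974 wells. Control lungs gave 1.11% and 1.36% of 2064 wells, Pre-MET lungs 0.356% and 0.996% of 1406 wells, and CD45-gated relapse-free lungs 0.930% and 3.41% of 2904 wells. Mouse 18 gave 76 of these 99 wells with Inmt and 15 of the 27 with Sftpc, and without it, again chosen after seeing the data, relapse-free lungs were at 1.06% of 2161 wells (0.710 to 1.59%) for Inmt and 0.555% (0.318 to 0.968%) for Sftpc. The intervals of control lung, distal normal lung, MET core and relapse-free CD45 wells overlapped for Sftpc. In primary tumors, which lie in the mammary gland, 0 of 1557 wells held Sftpc, Sftpa1 or Inmt, which allows a share of up to 0.193% (3 wells). The primary tumor wells were the deepest of the study, with 8399468 UMIs in all.

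**Figure D1:**
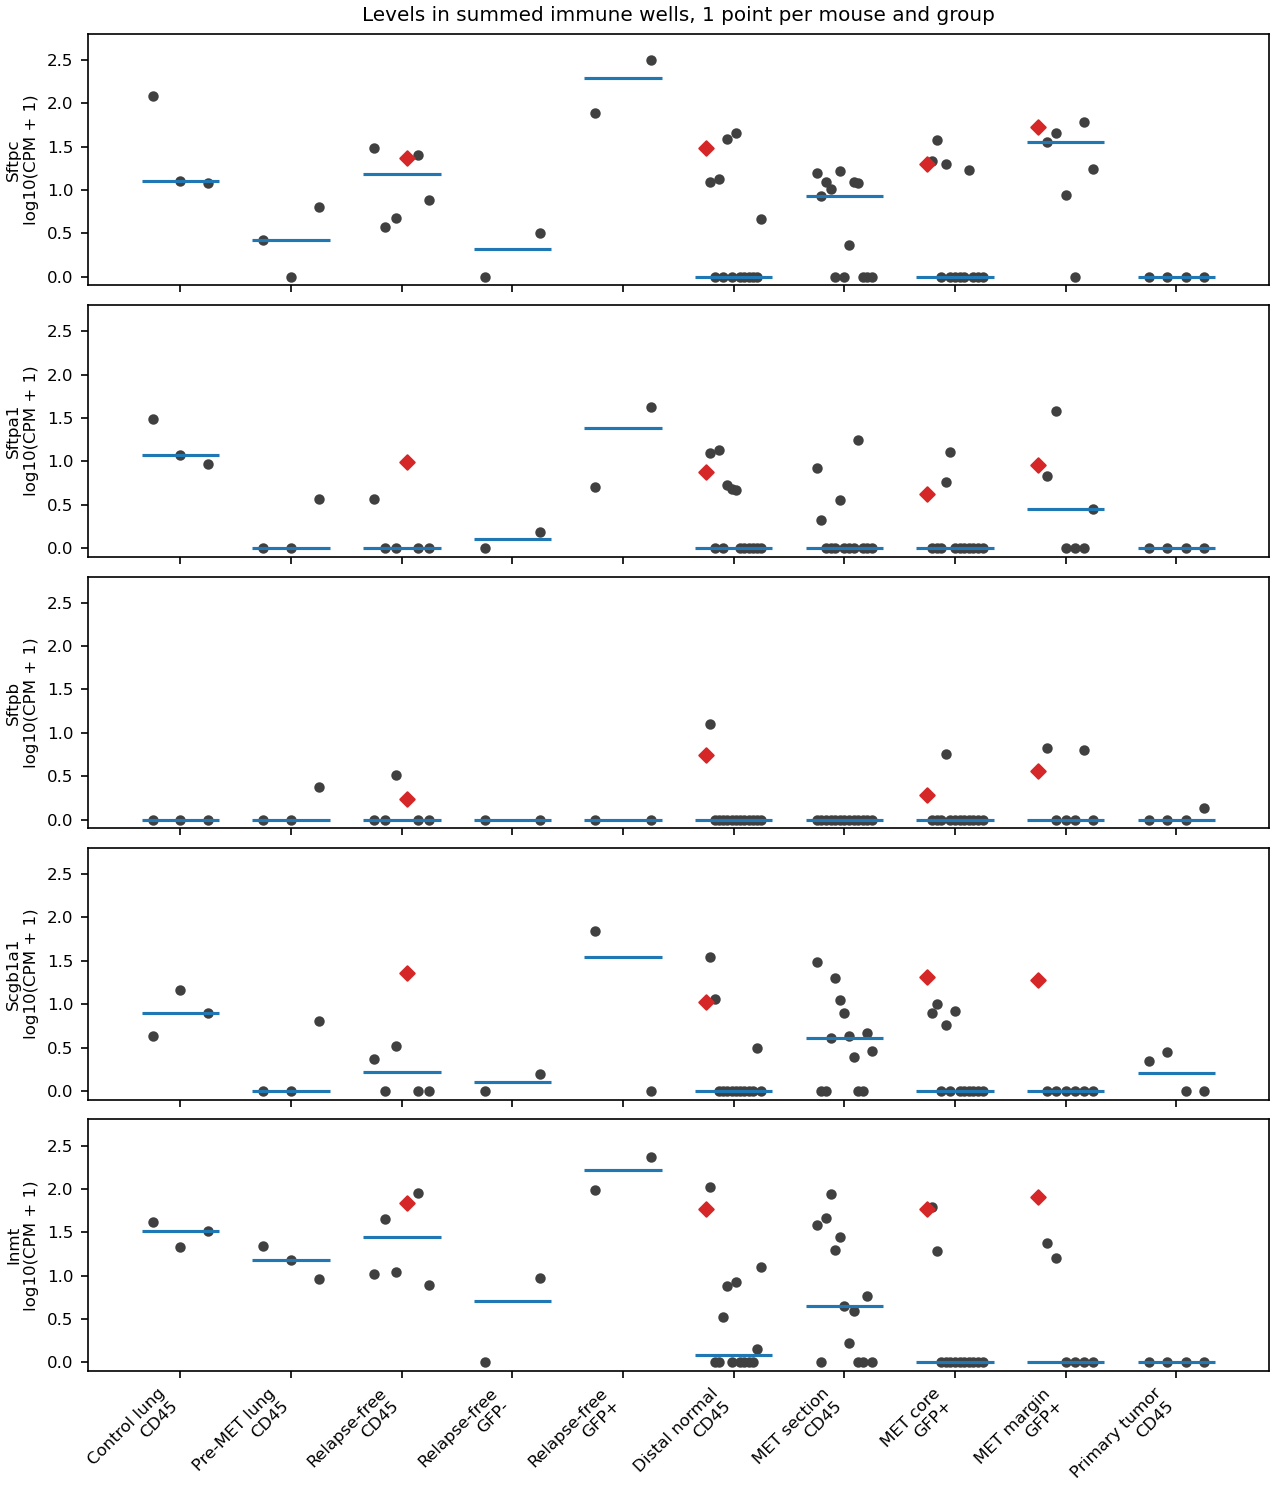
Level of each gene (vertical axis, log10 of CPM + 1, 1 panel per gene) in immune wells summed per mouse and group (1 point each), by group on the horizontal axis, with blue lines at the group medians and red diamonds for sums of batch SB112. The GFP-positive gate of relapse-free mouse 7 holds the highest point for Sftpc (314 CPM) and Inmt (230.1 CPM), that of mouse 6 lies below 1 CD45-gated lung for each (Sftpc 76.8 CPM against 119 in control mouse 1, Inmt 97.0 CPM against 103 in the distal normal lung of mouse 23), and all 4 primary tumors lie at 0 for Sftpc, Sftpa1 and Inmt.

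Levels per mouse were widely spread within most groups. Sftpc stood at 119, 11.7 and 11.1 CPM in the control lungs of mice 1, 2 and 3, and at 1.64, 0 and 5.42 CPM in the Pre-MET lungs of mice 8, 9 and 10. In the 6 relapse-free CD45 lungs it ran from 2.76 over a median of 14.4 to 29.8 CPM. The control and Pre-MET lungs, which were in different sequencing batches, did not overlap. The high value of control mouse 1 came largely from a single well that the authors labelled T_CD8_Gzmk, which held 72 Sftpc and 21 Sftpa1 UMIs. In lesion-bearing lungs Sftpc had its highest median, 34.4 CPM (0 to 59.1, 7 mice), in the invasive margin. The median was 7.62 CPM in MET sections (0 to 15.5, 13 mice) and 0 in the MET core (0 to 36.5, 13 mice) and in distal normal lung (0 to 44.4, 14 mice).

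Sftpa1 and Sftpb, which are made by the same alveolar cells as Sftpc, were rarer. Sftpa1 was at 30.2, 10.8 and 8.30 CPM in the control lungs, at 0, 0 and 2.71 CPM in the Pre-MET lungs and at 0 in 4 of 6 relapse-free CD45 lungs. It was at 4.04 CPM in the GFP-positive wells of mouse 6 and at 41.8 CPM in those of mouse 7. Sftpb had no UMI in the 2064 control wells, in the 4010 MET section wells or in the 804 GFP-positive relapse-free wells, where Sftpc was most frequent. The last of these zeros allows a share of up to 0.373%. Sftpb was therefore too shallow here for any statement on a difference.

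Scgb1a1 had another distribution. Its level was 68.7 CPM in the GFP-positive wells of mouse 6, all 17 UMIs lying in 3 wells of 1 plate, and 0 in those of mouse 7. In control lungs it was at 3.35, 13.4 and 6.92 CPM, and in Pre-MET lungs at 0, 0 and 5.42 CPM. In MET sections 9 of 13 mice had a UMI (median 3.06, highest 29.6 CPM), against 4 of 14 distal normal lungs and 1 of 7 margins.

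Inmt was present in every control, Pre-MET and CD45-gated relapse-free lung. It was at 40.2, 20.6 and 31.8 CPM in the control lungs, at 21.3, 14.2 and 8.13 CPM in the Pre-MET lungs and at 6.72 to 88.4 CPM (median 27.0) in the relapse-free lungs. In the GFP-positive wells of mice 6 and 7 it reached 97.0 and 230 CPM. In lesion-bearing lungs it was seen in 9 of 13 MET sections, 7 of 14 distal normal lungs, 3 of 13 cores and 3 of 7 margins. The limits of depth given for Scgb1a1 hold for these counts of mice as well.

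The photoactivated T cells of mice 6 and 7 were the comparison that drew attention to these genes. In mouse 6, 147 GFP-positive T cell wells held 9 Sftpc and 10 Inmt UMIs, and 110 GFP-negative T cell wells held 0 of either. In mouse 7, 265 GFP-positive T cell wells held 71 Sftpc and 90 Inmt UMIs, and 543 GFP-negative T cell wells held 0 of either. On the 2 GFP-negative plates of mouse 7 that shared batch SB99 and carried no label of missing photoactivation, 152 immune wells held 0 Sftpc and 0 Inmt UMIs, which allows a share of up to 1.97%. The same difference was there in wells that were not T cells: in mouse 7, 109 Sftpc UMIs in 255 GFP-positive wells against 4 in 685 GFP-negative wells. T cell wells of the CD45 gate from the same animals held 1 Sftpc UMI in 262 wells of mouse 6 and 0 in 67 wells of mouse 7. Among the GFP-positive wells Sftpc was thus found in other lineages as well as in T cells.

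Across lineages of those GFP-positive wells the share with Sftpc was 12.6% of 412 T cells, 15.7% of 140 NK cells, 18.8% of 133 monocytes, 20% of 55 neutrophils, 13.3% of 30 dendritic cells, 10.0% of 20 macrophages and 21.4% of 14 B cells. The 95% intervals of all 7 lineages overlapped. For Inmt the shares ran from 7.14% of B cells to 13.3% of dendritic cells, again with overlapping intervals. Both genes fell together in 26 wells: 21.8% of the wells with Sftpc also had Inmt, against 9.93% of those without it. A single plate of mouse 7 held 79 of the 119 wells with Sftpc and 62 of the 94 wells with Inmt. These pooled shares therefore mix plates of different level, and whether the genes fell together within plates was not tested.

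**Figure D2:**
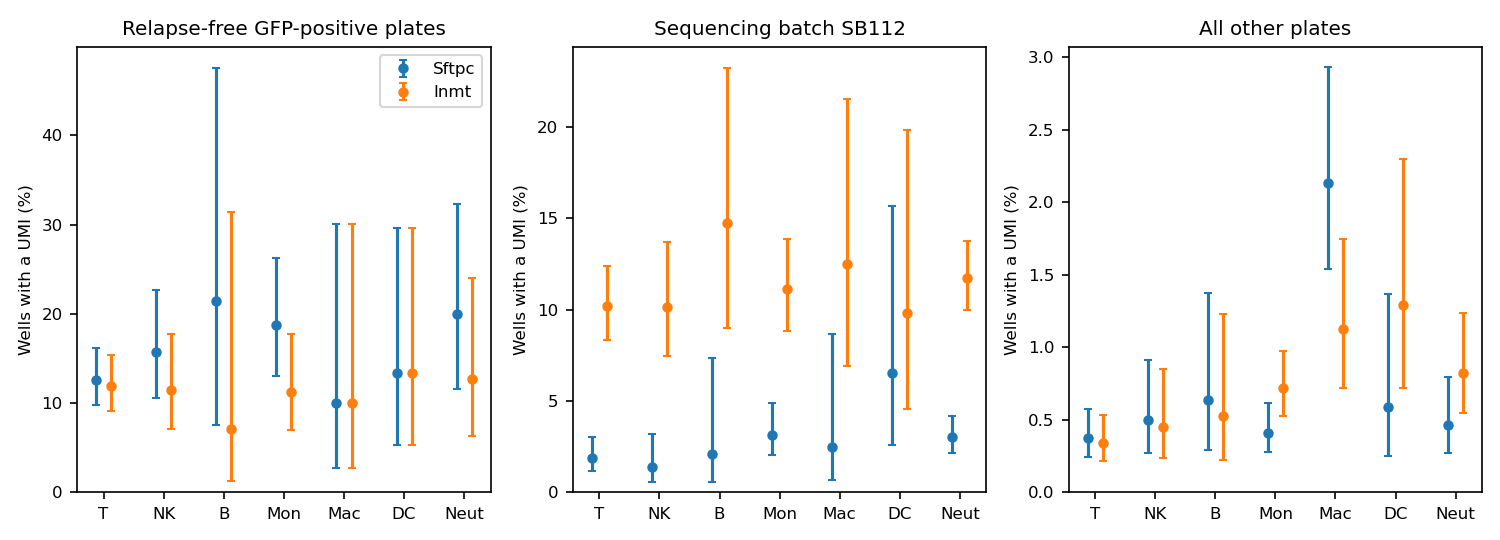
Share of immune wells with at least 1 UMI of the gene (vertical axis, percent, with Wilson 95% intervals) by lineage (horizontal axis), for the relapse-free GFP-positive plates, for the plates of sequencing batch SB112 and for all other plates. In the relapse-free GFP-positive plates Sftpc runs from 10.0% to 21.4% with overlapping intervals, and in SB112 Inmt runs from 9.84% to 14.7%.

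Plates divided the GFP-positive wells with Sftpc more sharply than lineages did. Of the 7 plates, numbered 1 to 3 for mouse 6 and 4 to 7 for mouse 7, 4 held a single well with very many Sftpc UMIs. These wells had 830 UMIs on plate 2, 1457 on plate 4, 1037 on plate 5 and 540 on plate 6, and the authors had labelled all 4 as Outlier, outside the immune types. On those plates 16 of 85, 79 of 264, 15 of 63 and 9 of 113 immune wells held Sftpc. On plates 1, 3 and 7, which had no such well, 0 of 66, 0 of 133 and 0 of 80 immune wells held it. Without the 4 plates, the T cells of both mice had no Sftpc UMI in 103 and 40 wells, whereas Inmt remained at 5 UMIs in each.

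The 4 rich wells resembled alveolar type 2 cells by their transcripts. Sftpc made up 36.9 to 48.6% of their UMIs, and Sftpa1 (45 to 191 UMIs), Sftpb (1 to 4 UMIs), Sftpd, Slc34a2, Cxcl15 and Lyz1 were present in 4 of 4. Of the other 5 genes of the 9-gene alveolar type 2 list, Lamp3 was in 3 of 4 and Napsa in 1, and Chil1, Abca3 and Etv5 were at 0 in all 4. The alveolar type 1 gene Ager was in 3 of 4. Sftpd is a further surfactant protein and Slc34a2 the phosphate transporter of these cells. Of the 4 genes of the immune list, Ptprc, which encodes CD45, and Cd3e were at 0 in all 4, while Lyz2 (148 UMIs) and S100a8 (8 UMIs) were in 4 of 4. Lyz2, a lysozyme gene of macrophages, is also known from alveolar type 2 cells. Of the 13 fibroblast genes 12 were at 0, and Ces1d had 2 UMIs in 1 well. On plate 4 the rich well had 7.71 Sftpc UMIs per Sftpa1 UMI and the immune wells 6.27, from 138 and 22 UMIs. On plates 2, 5 and 6 the immune wells held 1 Sftpa1 UMI each, too few for a ratio.

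Wells with many Inmt UMIs were different wells. On the 7 GFP-positive plates 44 wells held 20 or more Inmt UMIs (20 to 391, 3094 in all), of which 27 were labelled Outlier, 16 lay below 500 UMIs and 1 was an immune well. Such wells were found on all 7 plates, and Inmt was found in the immune wells of all 7. They carried Gsn (39 of 44 wells), Mgp (33 of 44), Col3a1 (20 of 44) and Tcf21 (17 of 44), which are known from lung fibroblasts. All 13 genes of the fibroblast list had UMIs in these wells, and the other 9 were in 3 to 16 of 44, with Eln (5 of 44) and Dcn (3 of 44) the fewest. Ager, of alveolar type 1 cells, was in 2 of 44. Rarres2, of the mesothelial list, was in 16 of 44, and Tmem100, of the endothelial list, in 10 of 44. Of the immune list, S100a8 was in 18, Lyz2 in 9, Ptprc in 3 and Cd3e in 0 of 44. No well was rich in both Sftpc and Inmt.

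Each well had its own barcode of 7 bases, which was read together with the UMI and assigned a read to its well after the plate had been pooled. All 148 plates used the same 384 barcodes, and any pair of them differed in at least 2 bases. The barcodes of the rich wells and of other wells of the same plate with much Sftpc are printed 5′ to 3′, because many of the highest counts, though not all, were in wells with a like barcode. Of each plate, those of the 5 highest wells that held at least 2 UMIs are shown. Capitals mark the bases that differ from the barcode of the rich well of that plate.
Plate 2, rich well F17 with 830 Sftpc UMIs: ttcagtc
Plate 2, well K6 with 11: tGcaCtc
Plate 2, well E19 with 10: AtcagGc
Plate 2, well L12 with 8: GtcaCtA
Plate 2, well D17 with 6: GtcaCAc
Plate 2, well D19 with 4: CAcagtA
Plate 4, rich well D2 with 1457 Sftpc UMIs: ttcagga
Plate 4, well E4 with 12: GGACgAT
Plate 4, well M21 with 11: tCTGgAG
Plate 4, well L12 with 9: GtcaCTa
Plate 4, well D22 with 7: AtcaCgG
Plate 4, well B7 with 6: CtGGAAG
Plate 5, rich well E4 with 1037 Sftpc UMIs: ggacgat
Plate 5, well D14 with 15: CTacgat
Plate 5, well J18 with 10: ggacTaA
Plate 5, well H3 with 6: gCaTgat
Plate 5, well C7 with 7: ggCGATt
Plate 5, well N21 with 5: ggTGATC
Plate 6, rich well A6 with 540 Sftpc UMIs: atgctac
Plate 6, well N1 with 7: atCTACG
Plate 6, well K13 with 2: aAgGtac
Plate 6, well P5 with 2: TGCTACT
On plate 4, wells E4, M21 and B7 differed from the rich well at 5 or 6 bases, as did N21 of plate 5 at 5 bases. Well K6 had 51 UMIs in all, so 11 of them were Sftpc, and well H3 was annotated as a CD4 T cell. Wells C7 of plate 5 and N1 and P5 of plate 6 differ from the rich well in many positions but hold its barcode with 1 base left out and the rest moved by 1 position.

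Over the 4 plates, Sftpc fell steeply with the number of differing bases. The 32 wells at 2 bases held 78 Sftpc UMIs (2.44 per well, exact Poisson 95% interval 1.93 to 3.04), and the 85 wells at 3 bases held 91 (1.07 per well, 0.862 to 1.31). The 4 wells whose barcode was shifted by 1 base held 16 UMIs (4.00 per well, 2.29 to 6.50). The remaining 1411 wells held 251 UMIs (0.178 per well, 0.157 to 0.201). Wells within 3 bases were thus 7.64% of the wells and held 38.8% of the Sftpc UMIs outside the rich wells.

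Taken plate by plate, the level at 2 bases was above that at 6 bases on all 4, with intervals apart on plates 2, 4 and 5 and overlapping on plate 6. At 2 bases the wells of plates 2, 4, 5 and 6 held 3.11, 1.57, 4.00 and 0.429 UMIs per well, against 0.148, 0.436, 0.157 and 0.0508 at 6 bases. On plate 6 these rest on 3 UMIs (0.0884 to 1.25) and 6 UMIs (0.0187 to 0.111), and its value at 3 bases, 0.143 from 3 UMIs (0.0295 to 0.417), overlapped those at 4 to 7 bases. Sftpa1 was spread likewise, with 0.231 UMIs per well at 2 or 3 bases and 0.0233 at 4 to 7. Inmt without its own rich wells, a choice made after seeing the data, was at 0.316 UMIs per well at 2 or 3 bases (exact Poisson 95% interval 0.221 to 0.437) and 0.235 at 4 to 7 (0.210 to 0.262), with overlapping intervals.

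**Figure D3:**
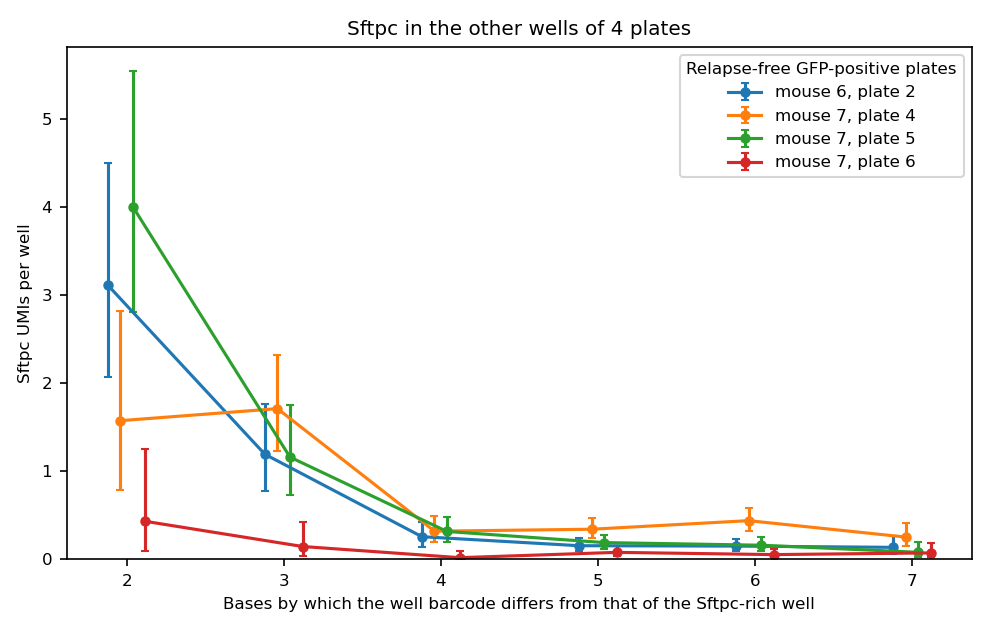
Sftpc UMIs per well (vertical axis, with exact Poisson 95% intervals) in the other wells of the 4 relapse-free GFP-positive plates with a Sftpc-rich well, by the number of bases by which the well barcode differs from that of the rich well (horizontal axis). On plate 5 the value is 4.00 at 2 bases and 0.0769 at 7 bases, and the other 3 plates also have their higher values at 2 and 3 bases.

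Wells far from the rich well in barcode still held Sftpc. Among immune wells of the 4 plates, 21 of 41 at 2 or 3 bases had a Sftpc UMI (51.2%), and 98 of 484 at 4 to 7 bases had 1 (20.2%, 16.9 to 24.1%). All 525 immune wells together gave 22.7% (19.3 to 26.4%), so leaving out the wells with near barcodes moved the share by less than its interval. By position on the plate, the wells touching the rich well held 0.375, 0.875, 0.375 and 0 UMIs per well on plates 2, 4, 5 and 6, against 0.290, 0.457, 0.324 and 0.0679 over all 383 other wells. Touching wells were at most 8 per plate, so these values rest on few UMIs.

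A well with the same barcode on another plate also stood out. Plates 4 and 5 were in the same sequencing batch, and well E4 of plate 4, an NK cell by its label, shared the barcode of the rich well E4 of plate 5 and held 12 Sftpc UMIs, the most on plate 4 outside its own rich well. In the other 14 plates of that batch 1 further well with this barcode had a UMI. For the other 3 rich wells wells of the same barcode on plates of the same batch held 0 or 1 Sftpc UMI.

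The gradient was not seen on the other 2 plates with a well of 50 or more Sftpc UMIs. A control plate of mouse 1 with the 72-UMI well and a margin plate of mouse 26 with a well of 113 UMIs held 0.0164 Sftpc UMIs per well at 2 or 3 bases and 0.0794 at 4 to 7 bases. Of the 56 UMIs at 4 to 7 bases 30 lay in 1 well of each plate, and without those wells, left out after seeing the data, the level was 0.0370 per well, so the classes rest on few UMIs. The richest of these wells had far fewer UMIs than the 4 above. For Inmt, immune wells of GFP-positive plates within 2 bases of an Inmt-rich well held 0.330 UMIs per well (97 wells, 0.226 to 0.466) and those farther away 0.137 (706 wells, 0.111 to 0.168). Plate 4 held 48 of the 97 near wells, with 0.396 UMIs per well near and 0.312 farther away. The near wells had the higher value on 6 of 6 plates that had any, but the other 5 held 1 to 5 UMIs each in near wells. In all other groups the 27 immune wells within 2 bases held 0.

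Empty wells give the level without a cell. The 592 empty wells held 8490 UMIs in all, and 8 of these were of the 5 genes: 4 of Sftpc, 3 of Inmt and 1 of Sftpa1. All 8 were in the 28 empty wells of the relapse-free GFP-positive plates, and the 564 empty wells of all other plates held 0. The 4 Sftpc UMIs were in the 2 empty wells that lay within 3 bases of the rich well, and the 14 empty wells at 4 to 7 bases on those plates had 0. Per well, Sftpc was at 0.143 in these empty wells, 0.115 in wells below 500 UMIs and 0.248 in immune wells, and the exact Poisson 95% interval of the first (0.0389 to 0.366) covered the other values. The intervals of immune wells (0.214 to 0.284) and wells below 500 UMIs (0.100 to 0.132) did not overlap. At 4 to 7 bases on the plates with a rich well, the 0 UMIs of the 14 empty wells allow up to 0.214 per well (3 UMIs), against 0.298 (0.251 to 0.350) in immune wells. The exact two-sided Poisson interval of these empty wells reaches 0.263, within that of the immune wells. As a share of UMIs the order was the reverse, with 8316 CPM in empty wells, 555 CPM in wells below 500 UMIs and 242 CPM in immune wells.

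**Figure D4:**
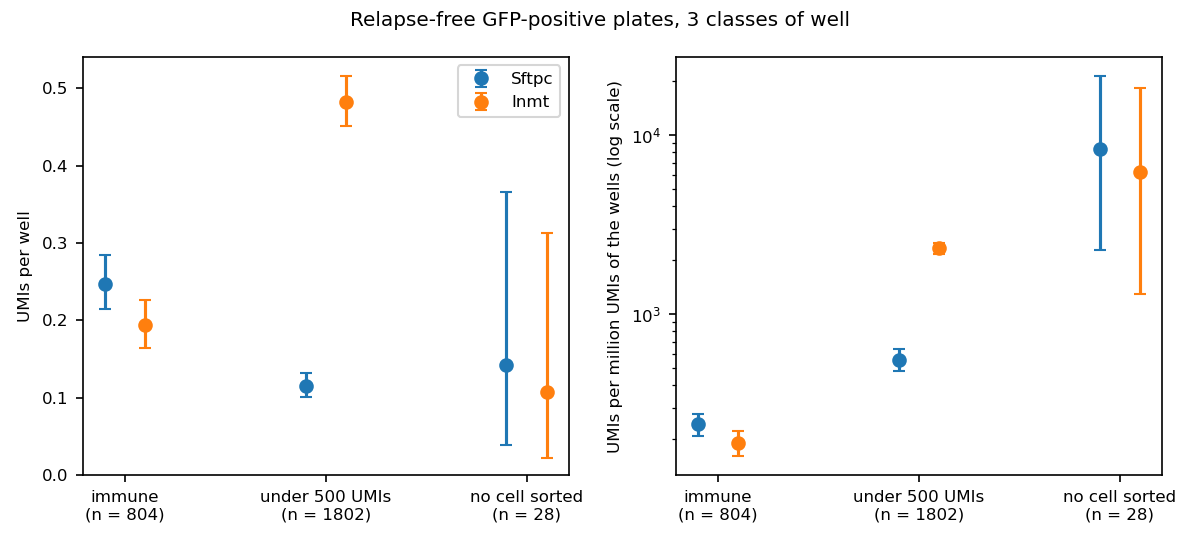
Sftpc and Inmt in 3 classes of well of the relapse-free GFP-positive plates (horizontal axis), as UMIs per well (left) and as UMIs per 1000000 UMIs of the wells on a log axis (right), with exact Poisson 95% intervals. Sftpc per well is at 0.248 in immune wells and 0.143 in wells without a sorted cell, whereas as CPM it rises from 242 to 8316.

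Plates with a rich well were then set beside all other plates. On the 9 plates with a well of 20 or more Sftpc UMIs, 10.1% of 1412 immune wells held Sftpc outside the rich well (8.59 to 11.7%), against 0.777% of 22011 wells on the other 139 plates (0.669 to 0.902%). Most of this came from the 4 relapse-free GFP-positive plates, and the other 5 plates were at 2.59% of 887 wells (1.73 to 3.86%). For Inmt, 11.6% of 803 wells on the 7 relapse-free GFP-positive plates held the transcript, but the other 8 plates with a rich well were at 1.97% of 1371 wells (1.36 to 2.85%), against 2.12% of 21249 wells on the 133 plates without one. Sequencing batch SB112, described further on, has no Inmt-rich well and many wells with Inmt. Without it and without the relapse-free GFP-positive plates, a choice made after seeing the data, the plates with and without a rich well were at 1.97% and 0.542% of 18075 wells (0.445 to 0.660%) for Inmt, and at 2.42% of 578 wells (1.45 to 4.02%) and 0.525% of 18868 wells (0.431 to 0.638%) for Sftpc. Plates differ in batch, depth, mouse and gate, whose part was not tested.

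The regions of lesion-bearing lungs were compared next, since they hold mice that played no part in the choice of the genes. In the edgeR quasi-likelihood fits over all genes, 0 of the 5 genes passed the filter on low counts in any of the 5 comparisons, so none could be called. Among the genes tested, the core against the MET section called 0.884% as higher and 0.338% as lower at a Benjamini-Hochberg adjusted p below 0.05 (34 and 13 of 3847 genes), and with the mouse as a block 78 as higher and 81 as lower. The margin called 0% of 4442 genes in either direction against the MET section and 0% of 3578 genes in either direction against the core, with 254 and 182 genes at an unadjusted p below 0.05. The MET section against distal normal lung called 2.1% as higher and 0.188% as lower (89 and 8 of 4245 genes). With the mouse as a block it called 139 as higher and 28 as lower, and with the batch as covariate 155 and 60. When every gene with a UMI was kept, edgeR's quasi-likelihood test gave Sftpc 2.32 higher on the log2 scale in the margin than in the MET section (SE 0.56, Benjamini-Hochberg adjusted p = 0.0357). That fit was not paired and held the margin of mouse 17, which has no MET section and gave 97 of the 130 Sftpc UMIs of the margins. In 2 fits added after seeing the data, the same test gave 2.03 (SE 0.65, adjusted p = 0.235) without that margin and 1.80 (SE 0.67, adjusted p = 0.499) with the mouse as a block, so the call was lost in both. Sftpb, with 7 UMIs in 3 margins and 0 in 13 MET sections, also had an adjusted p of 0.0357 in the first edgeR fit, 0.328 without that margin and 0.963 with the block. Against the core, the unfiltered edgeR fit with all margins gave Sftpc 2.12 higher (SE 0.63, adjusted p = 0.145).

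Within mice no difference reached an exact p below 0.05, although many of these tests could not. Sftpc was higher in the margin than in the MET section in 5 of 6 mice with both, by a mean of 0.83 on the log2(CPM + 10) scale (SE 0.41), and an exact two-sided sign-flip permutation test gave p = 0.125, where 0.0312 is the smallest possible. It was higher in the margin than in the core in 5 of 6 mice, by 0.83 (SE 0.51, exact permutation p = 0.156). The mean differences of the core from the MET section (-0.01, SE 0.20, 12 mice, permutation p = 1) and of the MET section from distal normal lung (0.04, SE 0.33, 13 mice, permutation p = 0.930) were close to 0. Within sequencing batches, pooled margin wells held more Sftpc than pooled MET section wells in 3 of 3 batches with both (38.8 against 16.7, 32.7 against 14.9 and 16.2 against 3.25 CPM) and more than pooled core wells in 4 of 4 (51.5 against 19, 38.8 against 6.66, 32.7 against 3.00 and 16.2 against 0 CPM). The core value of 3.00 CPM is of SB124, where 11 of the 12 margin UMIs came from mouse 33, which has no core. Over mice with both regions, chosen after seeing the data, that batch was at 5.55 against 4.12 CPM, from 1 UMI in each. Against the MET section the direction turned without mouse 33, with 5.55 CPM in the margin (1 UMI) and 17.2 CPM in the MET section (5 UMIs). Leaving out any other single mouse where both regions remained, also added after seeing the data, kept the margin higher in each batch, while the values it was compared with ran from 0.723 to 18.8 CPM in MET sections and from 0 to 15.9 CPM in cores. The batch values rest on 9 to 97 Sftpc UMIs in the margin and are not independent of the values per mouse.

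For Inmt the margin was below the MET section in 5 of 6 mice and equal at 0 in the other (mean difference -0.52, SE 0.22), and the exact permutation p of 0.0625 is the smallest that 5 differing pairs allow. Depth and single wells limit this count. In mice 31, 32 and 36 the margin had 0 UMIs and the MET section stood at 0.671, 2.87 and 4.89 CPM. These values lay below the 23.4, 57.6 and 5.41 CPM that 3 counts give in the margin. In mouse 26, 21 of the 28 MET section UMIs lay in 1 well. Without wells of 5 or more Inmt UMIs the mean difference turned positive. The core was below the MET section in 8 of 12 mice (-0.71, SE 0.39, exact permutation p = 0.0957), and had 0 Inmt UMIs in each of these 8. In mice 27, 30, 31 and 32 the MET section stood at 18.8, 3.49, 0.671 and 2.87 CPM. These values lay below the 35.8, 8.54, 16.7 and 47.7 CPM that 3 counts give in the core. In mice 25, 26, 28 and 36 the MET section lay above that limit. Scgb1a1 in the margin was likewise below the MET section in 5 of 6 mice and equal in the other (-0.41, SE 0.14). Its exact permutation p of 0.0625 is again the smallest that 5 differing pairs allow. In those 5 mice the margin had 0 Scgb1a1 UMIs and the MET section stood at 1.43 to 10.3 CPM. Each of these values lay below the limit that 3 counts give in the margin of that mouse (5.41 to 57.6 CPM). Of 20 such tests, on 5 genes and 4 pairs of regions, 11 had at most 5 pairs that differed and could not reach 0.05, and 0 of the other 9 did. These are p values without adjustment.

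CD45-gated lungs of the different stages were compared by exact two-sided permutation tests on the same scale, again 20 tests without adjustment. Sftpa1 was lower in the 6 relapse-free than in the 3 control lungs (-1.10, exact permutation p = 0.0238), but the control lungs were all in 1 sequencing batch and without control mouse 1 or control mouse 2 the exact permutation p was 0.0714. Control and Pre-MET lungs did not overlap for Sftpc (11.1 to 119 against 0 to 5.42 CPM) or Sftpa1 (8.30 to 30.2 against 0 to 2.71 CPM), and the exact permutation p of 0.1 was the smallest that 3 against 3 allow. The share of all genes that separate these lungs likewise was not counted, so this is a description. Control lungs were in SB102 and Pre-MET lungs in SB99 and SB111, so stage and batch cannot be told apart. Sftpc in relapse-free lungs was 0.89 above Pre-MET lungs (exact permutation p = 0.0833).

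Primary tumors and Pre-MET lungs are CD45-gated tissues of the same kind of animal with and without lung tissue. Inmt was at 0 in 4 of 4 primary tumors and at 21.3, 14.2 and 8.13 CPM in the Pre-MET lungs, so the groups did not overlap (-1.26 on the log2(CPM + 10) scale, exact permutation p = 0.0286, the smallest 4 against 3 allow). Pooled, the 29 Inmt UMIs of Pre-MET wells stood at 14.1 CPM, 39.5-fold above the 0.357 CPM that 3 counts over all primary tumor wells would give. That fold bounds the primary tumor side alone. Without 1 mouse, left out after seeing the data, the Pre-MET level ran from 11.1 CPM (exact Poisson 95% interval 6.34 to 18.0) to 17.5 CPM. Sftpc stood at 2.43 CPM in pooled Pre-MET wells, 6.82-fold above the same limit, though the Pre-MET lungs of 1 of 3 mice had none (exact permutation p = 0.143). Of its 5 UMIs 4 were of mouse 10, and without that mouse, left out after seeing the data, 1 UMI remained at 0.760 CPM (exact Poisson 95% interval 0.0192 to 4.24), which includes the limit. Over all genes this comparison called 12.6% as higher and 14.5% as lower in primary tumors, so a lower level was common in it. The primary tumor of 3 mice and their Pre-MET lungs came from the same animals, which the test above did not use, and Inmt was lower in the tumor in 3 of 3 (-1.26, SE 0.23, where 0.25 is the smallest exact permutation p that 3 pairs allow). Primary tumors were in batches SB128 and SB132 and Pre-MET lungs in SB99 and SB111, so tissue and batch cannot be told apart. Within SB128, Inmt was at 0 CPM in the primary tumor, the core and the margin, at 2.25 CPM in MET sections, at 4.55 CPM in distal normal lung and at 6.72 CPM in relapse-free lung. The limits that 3 counts give in the primary tumor, the core and the margin ran from 2.71 CPM (core) to 5.41 CPM (margin), all above the value of the MET sections.

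Sequencing batch, as named in the authors' well annotation, moved with the level of all 5 genes. SB112, a batch of 12 plates with the core, margin and distal normal lung of mouse 17 and the CD45-gated relapse-free lung of mouse 18, held 15.6% of all immune UMIs. It held 49.9% of the Inmt UMIs (457 of 916), 54.7% of the Scgb1a1 UMIs (122 of 223), 29.8% of the Sftpc UMIs (214 of 717), 31.2% of the Sftpa1 UMIs (44 of 141) and 15 of the 24 Sftpb UMIs. All 12 plates carried Sftpc, Scgb1a1 and Inmt. Inmt was at 42.8 to 105 CPM on the 12 plates, and in the 4 tissues it was at 57.4 (core), 79.1 (margin), 57.9 (distal normal lung) and 67.9 CPM (relapse-free lung). Over all other batches pooled, which include the primary tumors at 0, it was at 12.2 CPM. Single batches differed, and Inmt was at 65.4 CPM in SB112 and 71.0 CPM in SB99. In SB99, 132 of the 158 Inmt UMIs were of the GFP-positive plates of mouse 7. Sftpc was at 30.6 CPM in SB112, 80.9 CPM in SB99 and 46.5 CPM in SB102. Sftpa1 was also higher in SB99 and SB102 than in SB112, and Sftpb slightly higher in SB101. Of the 5 genes, only Scgb1a1 had its highest level in SB112.

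Mouse 17 therefore weighed heavily in its groups. It gave 127 of the 138 Inmt UMIs and 42 of the 54 Sftpc UMIs of the core, and 149 of the 155 Inmt UMIs and 97 of the 130 Sftpc UMIs of the margin. No MET section was in this batch, so mouse 17 entered none of the within-mouse comparisons with it, and the 2 mice cannot be told apart from the batch.

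**Figure D5:**
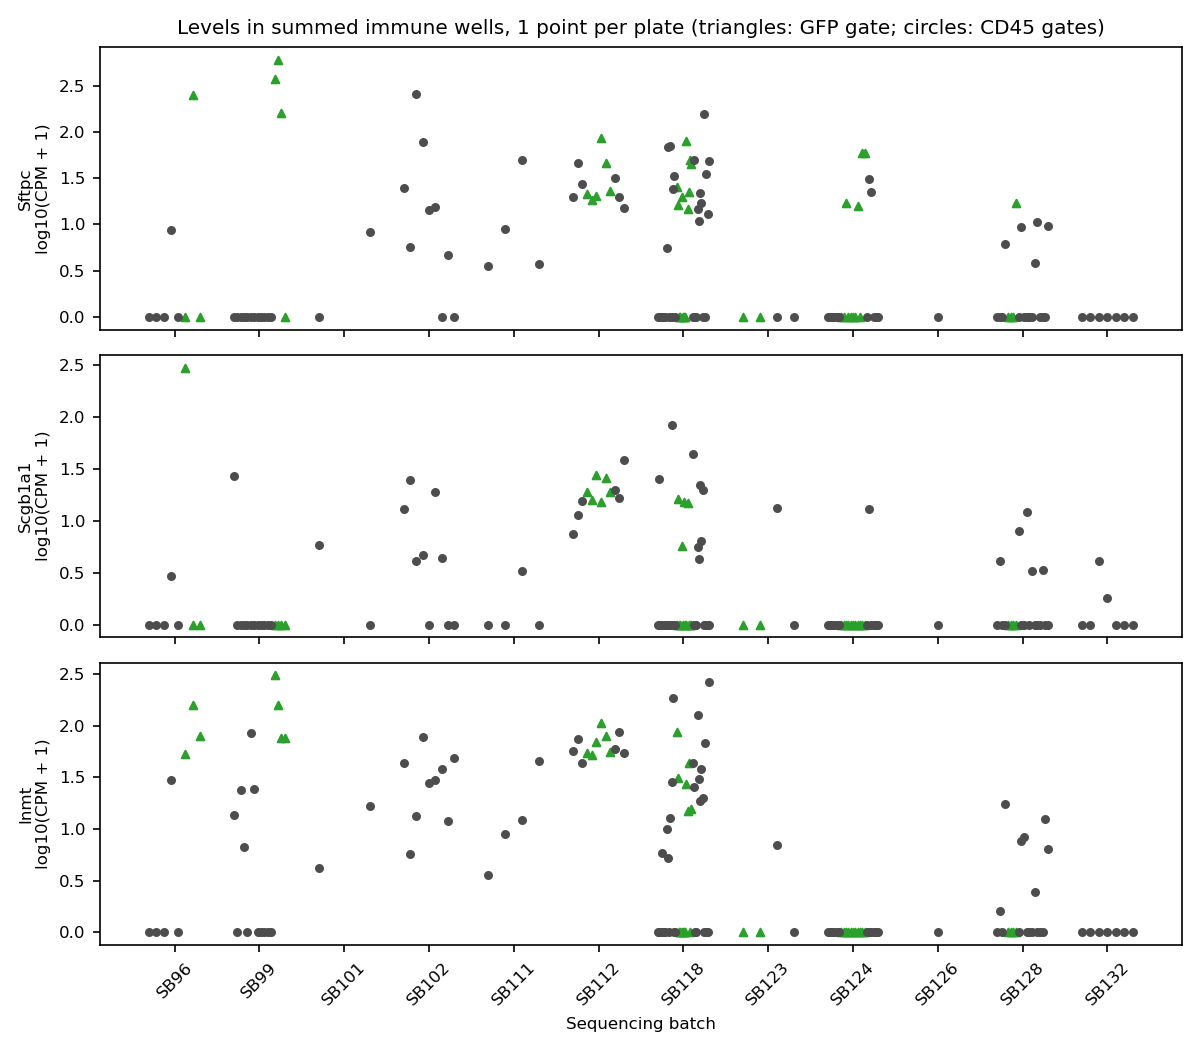
Level of Sftpc, Scgb1a1 and Inmt (vertical axis, log10 of CPM + 1) in the summed immune wells of each plate (1 point each), by sequencing batch (horizontal axis), with triangles for the GFP gate and circles for the CD45 gates. The 12 plates of SB112 lie at 42.8 to 105 CPM for Inmt, and the single highest Sftpc plate, at 610 CPM, is a relapse-free GFP-positive plate of batch SB99.

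In SB112 Inmt was spread thinly over many wells. It was in 11.1% of 3174 immune wells, 274 of 352 with a single UMI, and its share by lineage ran from 9.84% of dendritic cells to 14.7% of B cells with overlapping intervals. Sftpc was in 2.58% of the wells and Scgb1a1 in 1.42%, with 5 or more UMIs in 9 of 82 and 10 of 45 of them. Sftpc per well was 0.0605, 0.0870, 0.0668 and 0.0554 in 4 equal classes of wells of rising depth, so its CPM fell from 83.5 to 11.3 as wells became deeper. Inmt per well was 0.108, 0.160, 0.154 and 0.154. On the relapse-free GFP-positive plates 4 classes were cut anew, the deepest at 1150 to 6390 UMIs against 2538 to 22448 in SB112. They gave 0.159, 0.104, 0.259 and 0.468 Sftpc UMIs per well (284, 148, 272 and 250 CPM). For Inmt they gave 0.0547, 0.0647, 0.164 and 0.493 UMIs per well (97.8, 91.7, 173 and 263 CPM). The deepest class thus held the most of both per well there. Plate 4 held 264 of the 804 immune wells, 368743 of their 821244 UMIs, 138 of the 199 Sftpc UMIs and 113 of the 156 Inmt UMIs. Depth and plate were therefore mixed in these classes, and their parts were not tested. The 48 empty wells of SB112 held no UMI of the 5 genes, which allows up to 0.0625 per well (3 UMIs), below the 0.144 Inmt UMIs per immune well. In SB112 wells below 500 UMIs held 0.152 and wells labelled Erythrocytes 0.164 Inmt UMIs per well, both with intervals that covered the value of immune wells. Sftpc and Inmt fell together in 3 wells of SB112: 3.66% of the wells with Sftpc also had Inmt, against 11.3% of those without it. This order is the reverse of that on the relapse-free GFP-positive plates. Of the 5 hemoglobin and heme genes checked as erythroid markers, the summed level in immune wells of SB112 was 602 CPM, against 116 CPM in CD45-gated lungs of the whole series. The latter include the CD45-gated plates of SB112, and the SB112 value also pools its GFP-gated plates. The 116 CPM is therefore not the level outside the batch. Whether red cells or the batch's handling had a part in the members' levels was not tested.

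Outside SB112 and the relapse-free GFP-positive plates, Sftpc was more frequent in macrophage labels than in other immune wells. It was in 13 of 417 Mac_Cd9 wells (3.12%, 1.83 to 5.26%, from 7 mice) and in 15 of 423 Mac_Gpnmb wells (3.55%, 2.16 to 5.77%, from 6 mice), against 78 of 17756 wells that were not macrophages (0.439%, 0.352 to 0.548%). After thinning to 500 UMIs the shares were 1.70%, 1.20% and 0.265%, so the differences became smaller and the 2 labels stayed above the other wells. The other wells pool tissues of different level. Within MET sections Mac_Gpnmb stood at 4.09% (2.00 to 8.21%, from 3 of 11 mice) against 0.258% of wells that were not macrophages. After thinning this was 1.32% against 0.151%. Within the margin Mac_Gpnmb stood at 5.15% (2.52 to 10.2%, from 2 of 6 mice) against 1.89% (1.17 to 3.05%), with overlapping intervals, and after thinning at 1.76% against 1.20%. In the MET core 1 of 90 Mac_Gpnmb wells held Sftpc (1.11%, 0.196 to 6.03%), against 0.227% (0.0972 to 0.531%). In control lungs Mac_Cd9 stood at 3.75% (1.73 to 7.94%) against 0.899% (0.562 to 1.43%), and after thinning at 1.64% against 0.524%. The Mac_Cd9 wells with Sftpc were mostly of control (6 of 160 wells) and relapse-free lungs (4 of 96), and those of Mac_Gpnmb of MET sections (7 of 171) and margins (7 of 136). Pooled over tissues, the intervals of Mac_Cd81 (0.763%) and Mac_Isg20 wells (1.09%) overlapped that of the other immune wells. Of the 393 Mac_Cd81 wells, 160 were of primary tumors. In the MET core, 2 of 72 Mac_Cd81 wells held Sftpc (2.78%, 0.765 to 9.57%), above the interval of wells that were not macrophages, and 0 of 203 Mac_Isg20 wells. In MET sections, 3 of 208 Mac_Isg20 wells held it (1.44%, 0.492 to 4.15%), just above that interval (0.136 to 0.490%), and 0 of 96 Mac_Cd81 wells. Labels come from clusters of the same wells, so these are descriptions.

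Scgb1a1 was in 11 of the same Mac_Cd9 wells (2.64%), against 0.152% of wells that were not macrophages and 0.473% of Mac_Gpnmb wells. Inmt, the stromal transcript, was in 1.20% of Mac_Cd9 and 0.473% of Mac_Gpnmb wells, against 0.603% of wells that were not macrophages. In Mac_Cd81 and Mac_Isg20 wells it was in 1.78% and 1.09%. Few wells lay behind each share, and differences between the genes in their labels were not tested.

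Lists of other lung cell markers were read in the same wells. In the relapse-free GFP-positive immune wells, 8 of 13 fibroblast genes, 4 of 9 alveolar type 2 genes, 4 of 10 alveolar type 1 genes, 2 of 7 club cell genes and 1 of 7 ciliated cell genes had a higher CPM than in CD45-gated lungs, as had 6 of 7 pericyte and smooth muscle genes, from 22 UMIs, and 4 of the 5 members. Over all 32563 genes with a UMI in either set 27.8% had a higher CPM there, and over the 17735 genes with at least 20 UMIs in both together 40.2%. The smaller set has fewer UMIs, and 48.3% of the 32563 genes were at 0 in it. The alveolar type 2 list summed to 1283 CPM there and 1167 CPM in CD45-gated lungs, but its leading genes, Lyz1, Napsa and Chil1, are also made by immune cells. Lyz1, a lysozyme, was at 1057 against 706 CPM and Napsa, an aspartic protease, at 107 against 317 CPM. The alveolar type 1 receptor gene Ager was at 21.9 against 3.07 CPM, whereas Hopx, the most counted gene of that list, was at 87.7 against 102 CPM. The matrix gene Mgp was at 20.7 against 7.16 CPM, whereas Dcn, also of the fibroblast list, was at 1.22 against 4.87 CPM. Hp, the haptoglobin gene that led the club cell list, was at 291 against 962 CPM, and the fibroblast gene Gsn at 82.8 against 100 CPM. Of the 11 endothelial genes 5 had a UMI in these wells. The most counted were Hpgd (46.3 against 44.3 CPM) and Pecam1 (28.0 against 27.1 CPM). Epas1 (13.4 against 16.6 CPM) and Calcrl (13.39 against 13.38 CPM) followed with 11 UMIs each. Cdh5, Egfl7, Kdr, Ramp2, Tmem100 and Tspan7 were at 0. The part of whole cells of these types in the immune wells was not tested.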

How the data were processed

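The authors deposited a table of unnormalized UMI counts for each plate, with genes as rows and wells as columns, made by SPID-seq from reads mapped to mm10 with HISAT, keeping uniquely mapped reads in exons. Demultiplexing used bcl2fastq 2.15.0.4 per the labels. Cell labels, well barcodes, empty wells and sequencing batches came from the deposited well annotation, and no doublet caller was run. The 5 genes and the marker lists were chosen with earlier results of these data known.

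Counts of immune wells were summed per mouse and group, with at least 10 wells. Groups were compared with edgeR 4.0.16 (quasi-likelihood, TMM, filterByExpr, Benjamini-Hochberg at 0.05), checked on simulated data, with DESeq2 1.42.0 as an alternative. Single genes were tested on log2(CPM + 10) by exact permutation, enumerated in Python with numpy 2.4.6. Shares carry Wilson and counts exact Poisson 95% intervals from scipy 1.17.1, and limits for 0 use 3 counts. Thinning gave the expected share with a UMI at 500 UMIs per well. Of each marker list, at most the 3 genes with most UMIs in GFP-gated immune wells could be named, and other genes of the lists were named after their values were seen. Regions of lesion-bearing lungs were paired by the animal in the permutation tests. The edgeR fits and the tests between CD45-gated tissues were unpaired, with the mouse as a block in an alternative edgeR fit. Whether samples of a group came from separate digestions within a mouse is not stated, so mice were the replicates.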

Additional observations from a re-analysis of the deposited data

Results flagged for a closer look

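In 15 sets of a gene in a group of 4 to 10 mice, 7 samples stood apart from the rest by Dixon's criterion. The rate of about 1 set in 20 that chance passes is for normally distributed values. It does not apply to these sets, which hold many zeros. Where all other mice are at 0, any UMI meets the criterion. In CD45-gated relapse-free lungs, mouse 18 had 8.85 CPM of Sftpa1 (next 2.71) and 22.1 CPM of Scgb1a1 (next 2.28), and mouse 11 had 2.28 CPM of Sftpb (next 0.738). In the invasive margin, mouse 28 had 37.0 CPM of Sftpa1 (next 7.97), and mouse 17 had 18.1 CPM of Scgb1a1 (all others at 0) and 79.1 CPM of Inmt (next 23.0). Of these, the samples of mice 17 and 18 were in batch SB112. In primary tumors, mouse 38 had 0.366 CPM of Sftpb, which is 1 UMI.

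Signals outside the immune wells stood above those of other plates on the relapse-free GFP-positive plates. Their 28 wells without a cell held 4 Sftpc and 3 Inmt UMIs, against 0 in such wells of control lungs. Their 50 wells labelled Outlier held 3889 Sftpc, 498 Sftpa1 and 2651 Inmt UMIs, against 30, 10 and 206 UMIs in the 10 Outlier wells of control lungs. Per Outlier well this was 77.8 against 3 for Sftpc, 9.96 against 1 for Sftpa1 and 53.0 against 20.6 for Inmt. Among those 50 wells 4 were rich in Sftpc, 27 in Inmt and 19 in neither.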

How the results depend on the processing

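Calls over all genes depended on the fit, and depth limited the members. DESeq2 called 119 genes in the core against the MET section (47 in edgeR), 4 in the margin against the MET section and 8 in the margin against the core (0 in edgeR for both). Without a filter on low counts the numbers were 188, 133, 10 and, for the MET section against distal normal lung, 387 (97 with it). With T cells alone 0 of 656 genes were called for the core and 0 of 394 for the MET section against distal normal lung by edgeR, with 36 and 16 at an unadjusted p below 0.05, and 664 for primary tumors against Pre-MET lungs (2507 with all cells). Wells of at least 1000 UMIs gave 8 and 64 calls for the core and for the MET section against distal normal lung. With the mouse as a replicate block, the pairing being by animal, 159, 2 and 167 genes were called for the core, the margin and the MET section against distal normal lung, and 0 and 1980 for the margin against the core and for primary tumors. The batch as covariate gave 215 for the MET section against distal normal lung, and leaving out the core of mouse 17 gave 27 for the core. None of the 5 genes was called in any of these fits, except Sftpc and Sftpb in the unfiltered margin fit, a call lost without the margin of mouse 17 (87 genes called) and with the mouse as a block (71), both chosen after seeing the data, and Inmt in primary tumors without the filter and in 4 of 7 fits without 1 sample. Inmt was at 0 in every primary tumor and passed the filter through the Pre-MET lungs, so these calls add no support.

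Within mice, signs that changed were all of differences not past the threshold. For Sftpc, the core minus the MET section became 0.0629 percentage points by thinned share, 0.117 without wells of 5 or more UMIs and 0.0419 in T cells, and the MET section minus distal normal lung -0.0886, -0.0330 and -0.210. In T cells, Sftpa1 was at -0.17 and 0.17 in the same pairs and Scgb1a1 at 0.0945 in the margin minus the core, and without wells of 5 or more UMIs Inmt was at 0.0307 in the margin minus the MET section. Leaving out 1 mouse gave -0.11 to 0.56 for Sftpa1 in the margin minus the MET section, the low end being without mouse 28. Inmt in the core minus the MET section had an exact permutation p of 0.0488 with a pseudocount of 1, as had Scgb1a1 in the MET section minus distal normal lung by thinned share.

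Among CD45-gated tissues, leaving out 1 sample gave -1.23 to 0.0730 for Sftpc (positive without control mouse 1) and -0.38 to 0.13 for Inmt in relapse-free minus control lungs (0.0838, 0.0780 and 0.0598 without relapse-free mouse 6, relapse-free mouse 11 and control mouse 1), and -0.0460 to 0.21 for Sftpa1, -0.0405 to 0.07 for Sftpb (-0.00178 without mouse 18, -0.0251 without Pre-MET mouse 8 or 9) and -0.11 to 0.36 for Scgb1a1 in relapse-free minus Pre-MET lungs. For primary tumors minus Pre-MET lungs it gave -0.08 to 0.0130 for Sftpb and -0.21 to 0.10 for Scgb1a1. For Inmt there it gave -1.46 to -1.07, with exact permutation p of 0.0667 to 0.1, the smallest those sizes allow. Scgb1a1 in relapse-free minus control lungs reached an exact permutation p of 0.0179 without mouse 18, and Sftpc in relapse-free minus Pre-MET lungs 0.0476 with a pseudocount of 1. Thinning moved 34 of 50 shares beyond their interval, and leaving out wells with near barcodes, mouse 17 from the MET section comparison (94 calls) and mouse 17 from the shares were chosen after seeing the data.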

Other observations

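Genes whose level over the 67 sums was most like that of a member were looked for among 16263 genes with at least 50 UMIs in immune wells, by Pearson's r of log2(CPM + 10). The sums share mice, batches and depth, so r is a description. Sftpc was most like Sftpa1 (r = 0.67), Inmt (0.64) and Igfbp3 (0.53), and Sftpa1 was next most like Lrrc1 (0.65) and Klra10 (0.57). For Sftpb, with 24 UMIs, the 3 genes were 4933423P22Rik (0.73), Gm12196 (0.70) and Foxd4 (0.65). Scgb1a1 was most like Ogn (0.59), Inmt (0.56) and Timp3 (0.55), of which Ogn encodes a matrix proteoglycan and Timp3 a metalloproteinase inhibitor. Inmt was next most like Gm5766 (0.62) and Gm26827 (0.59). For the sum of the 5 genes the highest were Gm5766 (0.61), Gm12630 (0.57), Mgp (0.55), Serping1 (0.54) and Gm29047 (0.54), followed by Epas1, Gm26827, Kxd1, Ctnnb1 and Ndufa6 (0.52 to 0.53). Mgp is a matrix protein gene of the fibroblast list.

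Of the other lists, 3 of 11 endothelial, 1 of 5 mesothelial, 0 of 5 erythroid, 1 of 3 tumor keratin and 1 of 4 immune genes had a higher CPM in the relapse-free GFP-positive immune wells than in CD45-gated lungs.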
